A study of Rattus norvegicus with 11 samples.

Results

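The miR-34 and miR-449 family of rat pancreatic islets was described at 2 ages. Its members were taken by name, as every sense-strand row of a mature arm of miR-34a, miR-34b, miR-34c, miR-449a, miR-449b or miR-449c. This gave 8 of the 950 rows in the count table, which belong to 5 miRNAs: both arms of miR-34a, miR-34b and miR-34c, and the 5p arms of miR-449a and miR-449c. A mature arm is the short RNA cut from the left (5p) or right (3p) side of a hairpin precursor. The libraries came from islets, the hormone-secreting cell clusters of the pancreas, of Sprague-Dawley rats labelled as controls. There were 5 libraries from animals 10 days old (P10) and 6 from males 3 months old (adult), all built from total islet RNA and sequenced as small RNA. By their labels the libraries are biological replicates, with nothing said of pooled animals. The sex of the pups was not analysed here, so the effects of age and sex cannot be told apart. Isolated islets are bulk tissue, in which fewer cells of a type and less RNA per cell cannot be told apart.

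The miR-34 genes are known as direct transcriptional targets of the tumour suppressor p53, and their products repress cell-cycle and survival genes. miR-34a is made from its own gene, whereas miR-34b and miR-34c come from a shared primary transcript. The miR-449 miRNAs lie in an intron of Cdc20b, have the same seed, the stretch of a miRNA that pairs with its targets, and are best known, with miR-34b and miR-34c, from multiciliated epithelium and the male germ line. In beta cells miR-34a is known for its rise under lipid stress and inflammatory cytokines and for promoting cell death.

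The sequences are shown because the seed groups the members. In the RefSeq sequences (GRCr8), which matched 8 of 8 members by name, capitals mark bases 2 to 8, the seed:
miR-34a-5p: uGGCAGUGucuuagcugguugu
miR-34b-5p: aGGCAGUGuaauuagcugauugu
miR-34c-5p: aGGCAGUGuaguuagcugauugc
miR-449a-5p: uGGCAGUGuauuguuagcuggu
miR-449c-5p: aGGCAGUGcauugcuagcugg
miR-34a-3p: aAUCAGCAaguauacugcccua
miR-34b-3p: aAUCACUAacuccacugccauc
miR-34c-3p: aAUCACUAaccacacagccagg
All 5 of the 5p arms carried the seed GGCAGUG, and of the 693 mature names in the RefSeq sequence table these 5 were the only ones that did. The 3p arms of miR-34b and miR-34c shared another seed, AUCACUA, which no other mature name in that table carried, and the 3p arm of miR-34a had a seed of its own. miR-34b-5p and miR-34c-5p differed at 2 of 23 positions, A11G and U23C, with the base of miR-34b-5p first and positions counted from 1 at the 5′ end. How the authors assigned reads that fit several miRNAs is not given in the sources used here, so the split of counts between miR-34b-5p and miR-34c-5p is uncertain. miR-34a-5p differed from miR-34c-5p at 11 of 22 positions compared without gaps, and miR-449a-5p from miR-449c-5p at 3 of 21.

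The deposited positions are in Rnor_5.0. miR-34a-5p lies on chromosome 5 (170733261 to 170733282, plus strand). miR-34b-5p (54088947 to 54088969) and miR-34c-5p (54088423 to 54088445) lie on the minus strand of chromosome 8, with starts 524 bases apart. miR-449a-5p (63935169 to 63935190) and miR-449c-5p (63933638 to 63933658) lie on the plus strand of chromosome 2, 1531 bases apart. Each member had 1 locus in the table.

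Library totals ran from 1599157 to 4483017 counts at P10 and from 1432929 to 2847837 in adults. Levels are given as CPM, counts per 1000000 counts of the tested features after TMM scaling, a factor that corrects each library for its composition, and 1 count corresponded to between 0.208 and 0.847 CPM. The family held 3849 counts over the 11 libraries, of which miR-34c-5p took 84.2%. Of the 8 arms, 2 passed the abundance filter of the test, miR-34c-5p and miR-34a-5p, and both were above it at each age. The other 6 arms lay at 0 to 29 counts in a library at P10 and at 0 to 6 in adults. Ligation and PCR favour some small RNA sequences, so the order of levels between members is less certain than the change of a member with age.

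miR-34c-5p, the main member of the family in islets, fell 2.45-fold from P10 to adulthood. At P10 it was at 134.1, 141.2, 178.6, 136.2 and 162.0 CPM (replicates 1, 3, 4, 5 and 6). In adults the lowest value was 49.1, the median 61.0 and the highest 72.2 CPM. Every adult library lay below every P10 library, and the lowest P10 value was 134.1 CPM. The libraries averaged 150.4 ± 19.2 CPM at P10 (SD, n = 5) against 61.4 ± 9.51 CPM in adulthood (SD, n = 6), for a log2 fold change of -1.29 (SE 0.15; adjusted p = 8.62e-06 by edgeR over 457 tested features). Calls were common at this age step: edgeR called 29.5% of the tested features lower in adults and 21.2% higher, and in 16.4% every adult library lay below every P10 library. That balance depends on the scaling: 135 were lower and 97 higher with TMM, 114 and 121 with DESeq2's size factors, 103 and 127 with upper-quartile scaling, and 187 and 54 with library totals alone. The median log2 fold change of all tested features was -0.11, and 59 features, 12.9% of those tested, had a more negative change than miR-34c-5p. By rank among the 898 features in a library, miR-34c-5p stood between 142 and 161 at P10 and between 188 and 215 in adults.

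miR-34a-5p, the member most closely tied to p53 and to beta cell stress, did not pass the test. It was at 14.5, 12.8, 14.8, 11.1 and 16.2 CPM at P10 (replicates 1, 3, 4, 5 and 6). The adult values ran from 6.91 CPM, in replicate 4 with 10 counts, through a median of 13.1 to 14.4 CPM. The ages overlapped, and 4 of the 6 adult libraries lay within the P10 range. The means were 13.9 ± 1.97 CPM (SD, n = 5) and 11.8 ± 2.93 CPM (SD, n = 6), with a log2 fold change of -0.25 (SE 0.21; adjusted p = 0.350 by edgeR). The size of this difference moved with the scaling: it was -0.51 with library totals alone (edgeR adjusted p = 0.0616) and -0.09 with upper-quartile scaling (edgeR adjusted p = 0.764). Those scalings shifted the median of all tested features by -0.26 and 0.16 (log2).

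The 2 members changed by different amounts. The log2 ratio of miR-34c-5p to miR-34a-5p within a library was 3.14, 3.39, 3.53, 3.53 and 3.26 at P10 (replicates 1, 3, 4, 5 and 6), so miR-34c-5p was 8.81 to 11.5 times as abundant on this scale, to which a prior count of 2 was added. In adults the ratio ran from 1.86 to 2.86, or 3.64 to 7.29 times. The ranges of the ages did not overlap. The mean log2 ratio fell by 1.04, from 3.37 ± 0.17 (SD, n = 5) to 2.33 ± 0.42 (SD, n = 6; exact permutation p = 0.00649, two-sided, over 462 arrangements of the age labels). This was the only pair tested, and 0.00216 is the smallest p these arrangements allow. Within adults the ratio was highest in replicates 4 (2.86) and 2 (2.82), the libraries with the lowest miR-34a-5p.

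**Figure D1:**
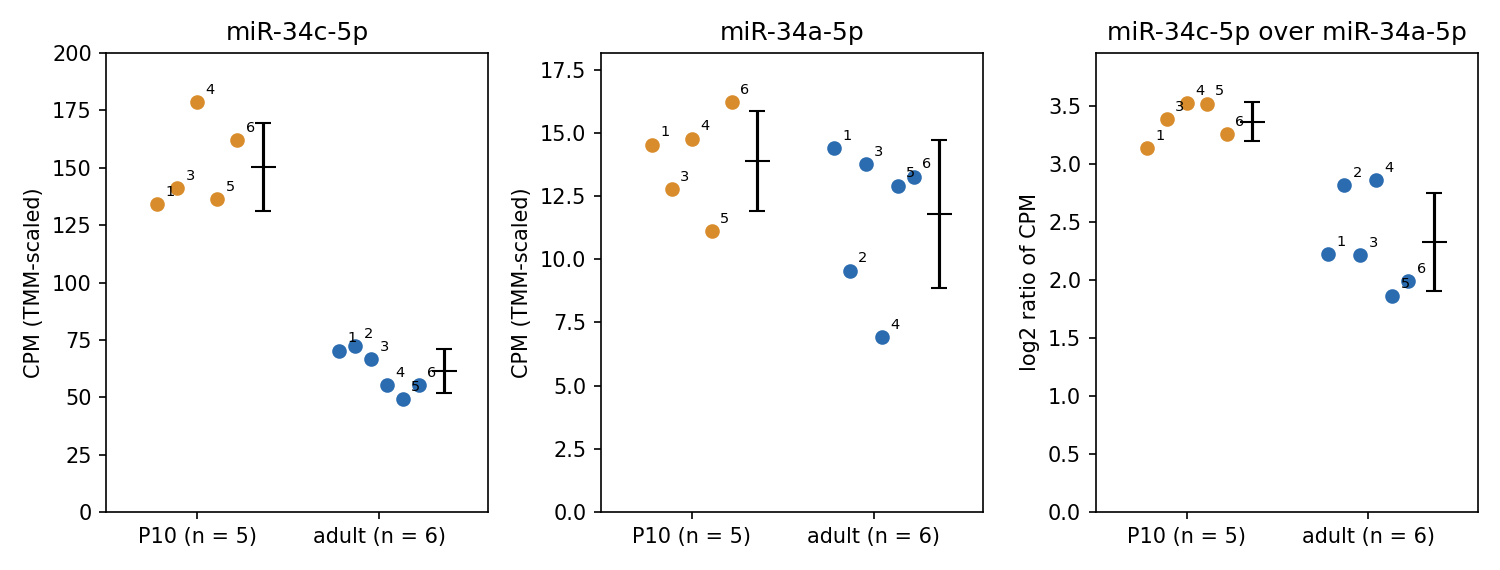
Levels of miR-34c-5p and miR-34a-5p in TMM-scaled CPM and the log2 ratio between them, with 1 numbered point per library (orange P10, blue adult) and black bars for mean ± SD. The miR-34c-5p points and the ratio points separate by age, whereas the miR-34a-5p points overlap, with adult replicate 4 lowest at 6.91 CPM.

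The 3 remaining members with the GGCAGUG seed added little to its total. Counts of all 5 arms with this seed came to 187, 150, 227, 177 and 197 per 1000000 library counts at P10 (replicates 1, 3, 4, 5 and 6). In adults they ran from 61.3 through a median of 71.8 to 80.6 on the same scale. These are shares of the library totals without TMM factors, given as a description. miR-34c-5p made up 87.9% to 89.5% of the seed's counts in the P10 libraries and 74.6% to 86.7% in the adult libraries. miR-34a-5p made up 7.30% to 9.59% at P10 and 10.5% to 19.8% in adults. The exact binomial 95% interval of the miR-34c-5p share was 85.2% to 91.2% in P10 replicate 1 and 67.6% to 82.3% in adult replicate 6. Such intervals cover counting error only.

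**Figure D2:**
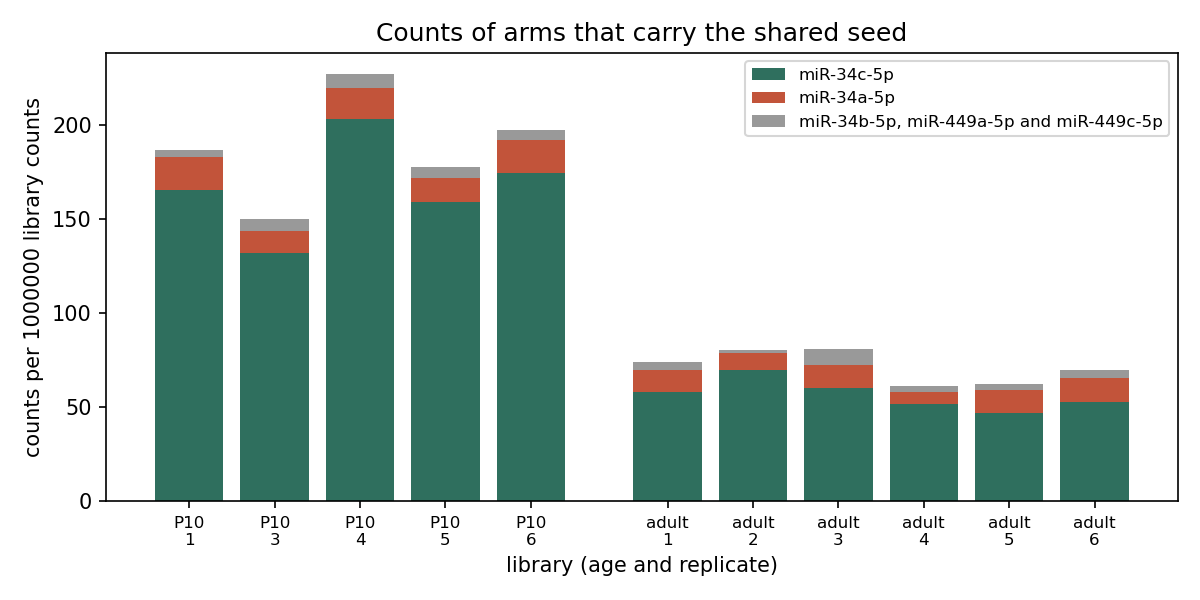
Stacked bars of the counts per 1000000 library counts from arms with the seed GGCAGUG, 1 bar per library, split into miR-34c-5p, miR-34a-5p and the 3 other arms together. The P10 bars reach 150 to 227 and the adult bars 61.3 to 80.6, and the miR-34c-5p part accounts for most of each bar.

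miR-34b, the neighbour of miR-34c on chromosome 8, was sparse, and its 3p arm fell with age. miR-34b-3p had 15, 3, 9, 14 and 29 counts at P10 (replicates 1, 3, 4, 5 and 6) and 2, 1, 2, 1, 1 and 2 counts in adults (replicates 1 to 6). In CPM this was 2.02 to 6.03 at P10 and 0.369 to 1.69 in adults, without overlap. Every adult library was under 3 counts. The gap between the ages rests on 3 counts in P10 replicate 3 against 2 counts in adult replicate 1. In the fit without the abundance filter, which tested all 898 features, its log2 fold change was -2.19 (SE 0.48; adjusted p = 0.00134 by edgeR). The ratio of the CPM of summed counts, P10 over adult, was 5.32 with an exact interval of 2.65 to 12.1 (95%, counting error only). That fit called 13.4% of features lower in adults and 10.8% higher. It called 2 of the 8 arms of the family lower, miR-34b-3p and miR-34c-5p, and 0 higher, and 6 did not pass. The ages did not overlap in the same 2 arms, with adults lower, against 9.24% of all features. With 8 arms, these counts do not set the family apart from the background.

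The 5p arm of miR-34b was at 5, 5, 17, 7 and 12 counts at P10 (replicates 1, 3, 4, 5 and 6) and at 4, 2, 6, 0, 1 and 1 counts in adults (replicates 1 to 6). Adult replicates 3 and 1, at 4.12 and 3.39 CPM, lay within the P10 range of 1.65 to 4.49 CPM, and the other 4 adult libraries lay below it. The log2 fold change without the filter was -1.02 (SE 0.59; adjusted p = 0.226 by edgeR). Without adult replicate 3 it was -1.66 (edgeR adjusted p = 0.0486), just under the threshold. In the other 15 alternatives it did not pass (edgeR adjusted p 0.0876 to 0.412). Of the counts of the 5p arms from this locus, miR-34b-5p held 1.77% at P10 (46 of 2596 counts, exact binomial 95% interval 1.30% to 2.36%). In adults it held 1.99% (14 of 704, 1.09% to 3.31%). These intervals cover counting error only. Single libraries ran from 1.22% to 2.45% at P10 and from 0% to 5.83% in adults.

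The hairpins of this locus show where the arms lie. In the RefSeq sequences (GRCr8) capitals mark the 5p arm, to the left, and the 3p arm, to the right:
Mir34b: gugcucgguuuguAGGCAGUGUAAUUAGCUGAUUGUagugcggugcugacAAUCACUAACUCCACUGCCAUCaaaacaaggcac
Mir34c: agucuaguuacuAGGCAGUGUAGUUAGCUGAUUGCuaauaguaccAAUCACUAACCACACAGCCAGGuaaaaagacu
For miR-34c the 5p arm gave nearly all counts at both ages, whereas for miR-34b the arms were nearer to each other. For miR-34c the 3p arm held 19 of 2569 counts of both arms at P10, or 0.740% (exact binomial 95% interval 0.446% to 1.15%), and 6 of 696 in adults, or 0.862% (0.317% to 1.87%). For miR-34b it held 70 of 116 at P10, or 60.3% (50.8% to 69.3%), with 34.6% to 75.0% in single libraries and more 3p than 5p counts in 3 of 5. The intervals in this paragraph come from counts summed over the libraries of an age and cover counting error only. In adults the 5p arm of miR-34b gave more of the summed counts, and the 3p arm held 9 of 23, or 39.1% (19.7% to 61.5%). Single adult libraries ran from 25.0% to 100%, with more 3p than 5p counts in 2 of 6 and equal counts in 1. For miR-34a the 3p arm held 5 of 241 counts at P10, or 2.07% (0.677% to 4.77%), and 0 of 133 in adults, which allows a share of up to 2.26% when 3 counts are taken as the limit of a count of 0. The exact binomial 95% interval of this adult share reached 2.74%. The test of arm usage by age took 127 precursors with both arms above the filter, and 0 of them were in this family.

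miR-34c-3p had 7, 2, 2, 4 and 4 counts at P10 (replicates 1, 3, 4, 5 and 6) and 0 to 2 in adults, 6 in total (edgeR without filter, adjusted p = 0.285). The CPM of 3 counts lay between 0.624 and 2.54 over the libraries, and every adult value of this arm was under 3 counts. miR-34a-3p had 5 counts over all P10 libraries and 0 in adults.

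The miR-449 members were near the floor at both ages. miR-449a-5p had 3, 5, 4, 8 and 11 counts at P10 (replicates 1, 3, 4, 5 and 6) and 0, 1, 4, 5, 3 and 6 in adults (replicates 1 to 6). Its levels overlapped widely, at 0.991 to 3.36 CPM at P10 and 0 to 3.45 CPM in adults. The log2 fold change without the filter was -0.09 (SE 0.56; adjusted p = 0.898 by edgeR), and its sign depended on the setting. miR-449c-5p, on the same strand of the same cluster, had 8 counts at P10 and 13 in adults, with at most 5 in a library (edgeR without filter, adjusted p = 0.217). The ratio of the CPM of its summed counts, P10 over adult, was 0.421, with an exact interval of 0.151 to 1.10 that includes equal levels.

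**Figure D3:**
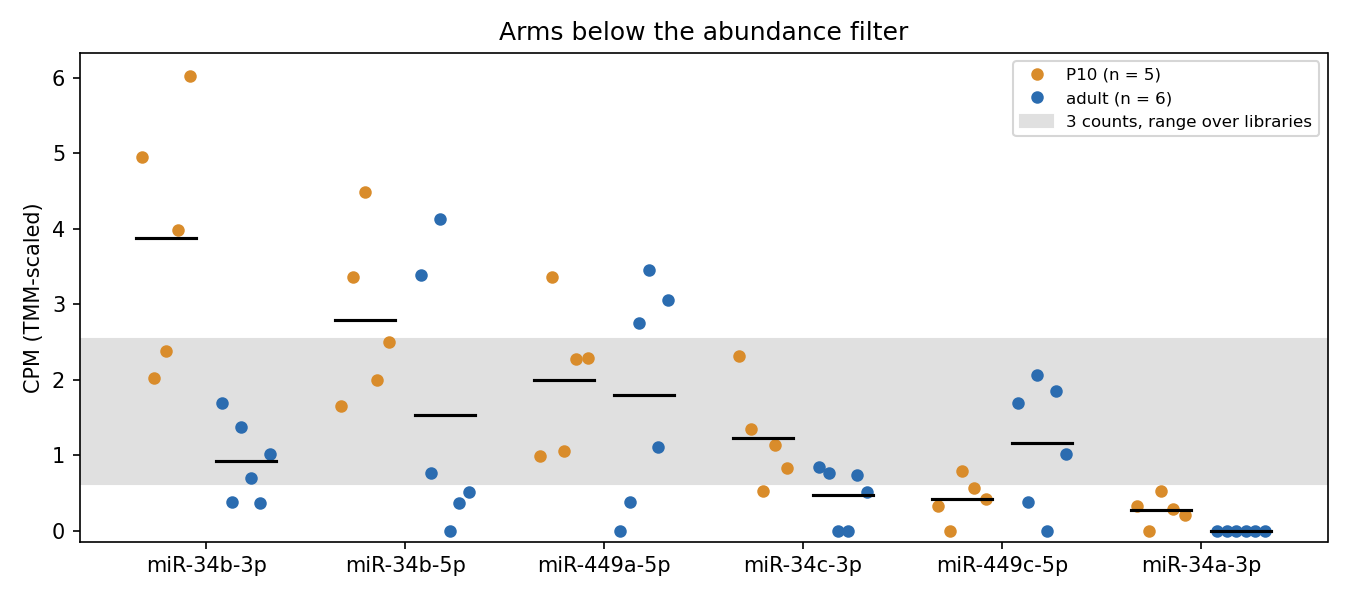
TMM-scaled CPM of the 6 arms below the abundance filter, 1 point per library (orange P10, blue adult), with black lines for the means and a grey band for the CPM of 3 counts over the libraries. The miR-34b-3p points separate by age (2.02 to 6.03 CPM against 0.369 to 1.69 CPM), with every adult point under 3 counts. The other arms overlap or lie at or under the band.

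In order of mean level, miR-34c-5p stood first and miR-34a-5p next, and their ranges did not overlap at either age. At P10 miR-34a-5p (lowest 11.1 CPM) also lay above miR-34b-3p (highest 6.03 CPM). Below it neighbours overlapped: miR-34b-3p at 3.87 ± 1.70 CPM, miR-34b-5p at 2.80 ± 1.14 CPM, miR-449a-5p at 1.99 ± 0.990 CPM and miR-34c-3p at 1.23 ± 0.679 CPM (SD, n = 5). In adults miR-34a-5p (lowest 6.91 CPM) lay above every lower arm, of which miR-34b-5p reached the highest value, 4.12 CPM. The highest adult means after miR-34a-5p were those of miR-449a-5p, 1.79 ± 1.48 CPM, and miR-34b-5p, 1.53 ± 1.76 CPM (SD, n = 6), each with an SD close to or above its mean.

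Some marker miRNAs of other cell types differed with age in the same libraries. In the mesenchymal marker list (miR-143, miR-145 and miR-199a; miR-199b and miR-214 were not analysed here) 4 of 6 tested arms fell and 0 rose, against 29.5% lower and 21.2% higher of all tested features, and the median log2 fold change was -1.11. Its summed level was 33256 to 61145 CPM at P10 and 17177 to 58305 CPM in adults. Most of this sum was miR-143-3p, which did not pass (edgeR adjusted p = 0.174). miR-199a-3p fell 4.86-fold and miR-199a-5p 6.58-fold, and neither overlapped between the ages: the highest adult values were 560 and 190 CPM and the lowest P10 values 1171 and 528 CPM. Adult replicate 1, at 58305 CPM, lay within the P10 range of the sum but, like every adult library, below the P10 range of both miR-199a arms. Its miR-34c-5p was 70.3 CPM, below every P10 library. Among adults, replicates 1, 2 and 3 had both the highest mesenchymal sums and the highest miR-34c-5p (66.7 to 72.2 CPM, against 49.1 to 55.3 CPM in the rest). At P10 replicate 3 had the highest mesenchymal sum, and replicate 4 the highest miR-34c-5p. The part of this list in the fall of miR-34c-5p and miR-34b-3p was not tested.

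**Figure D4:**
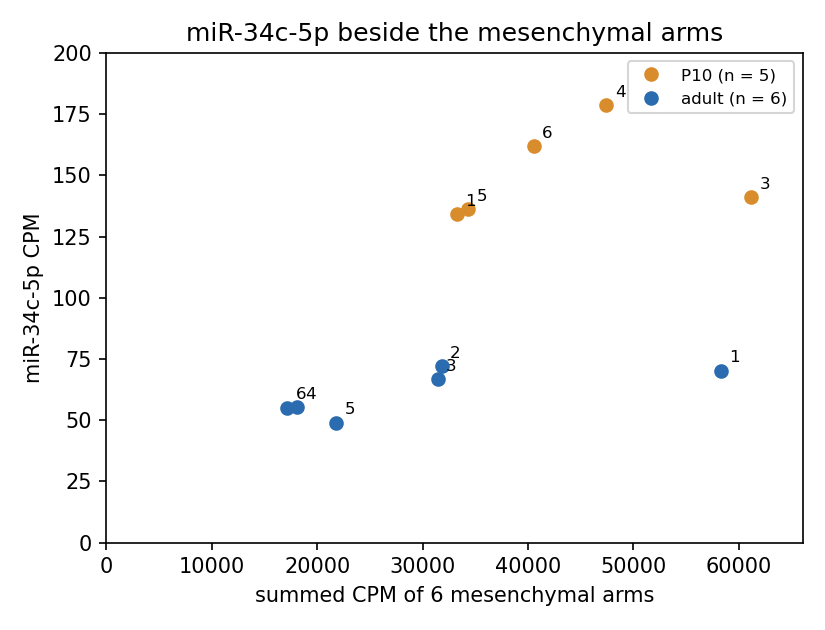
miR-34c-5p in CPM against the summed CPM of the 6 mesenchymal arms, 1 numbered point per library (orange P10, blue adult). Adult replicate 1 lies at a mesenchymal sum within the P10 range and at a miR-34c-5p level of 70.3 CPM, below the P10 points; the sum is mostly miR-143-3p, and the miR-199a arms of all adult libraries lay below those at P10.

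The endocrine markers moved the other way. Of 7 tested arms of miR-375 and miR-7, 5 rose and 0 fell, against 21.2% higher and 29.5% lower of all tested features, a background that also applies to the counts below. Their median log2 fold change was 1.01, with summed levels of 113604 to 166588 CPM at P10 and 252751 to 326109 CPM in adults. miR-375-3p rose 2.01-fold, miR-7a-1-5p 2.47-fold and miR-7a-2-3p 2.16-fold. The 5p rows of the miR-7a-1 and miR-7a-2 loci counted as separate arms. How reads that fit both loci were divided is not given in the sources used here. In the leukocyte list 1 of 4 tested arms fell, miR-150-5p (2.79-fold), and miR-142-5p (edgeR adjusted p = 0.162) and miR-223-3p (0.101) did not pass. The acinar arms miR-217-5p (3.90-fold) and miR-216a-5p (2.56-fold) rose, 2 of 3 tested, from low levels (summed 22.2 to 37.7 CPM at P10 and 28.6 to 127 CPM in adults). Neither tested erythroid arm passed, miR-451-5p (edgeR adjusted p = 0.505) or miR-144-5p (0.856). The neuronal miR-124 rows summed to at most 2.29 CPM. miR-126, miR-9 and miR-486 were not analysed here. The part of these lists in the result was not tested.

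Other miRNAs linked to p53 were called in both directions, about as often as the background. The list held miRNAs known as p53 targets (miR-192, miR-194, miR-215, miR-145, miR-107, miR-141, miR-22) or as processed with p53's help (miR-143, miR-16); miR-15a and miR-200c were not analysed here. Of 14 tested arms 4 rose, 4 fell and 6 did not pass, near the 21.2% of all tested features called higher and 29.5% called lower. The median log2 fold change was -0.12 against -0.11 over all tested features. With library totals alone 7 of the 14 fell, as did 187 of all 457 features. miR-22-3p, the most significant, rose, at 21431 ± 2936 CPM in the P10 libraries (SD, n = 5) against 56088 ± 4240 CPM in the adult ones (SD, n = 6), for a log2 fold change of 1.39 (SE 0.11; adjusted p = 4.73e-07 by edgeR). miR-141-3p, of the epithelial miR-200 family, rose 1.69-fold, and the other arm of each of these hairpins rose as well. The arms that fell were miR-192-5p (log2 fold change -0.65), miR-194-2-5p (-0.48), miR-145-5p (-1.23) and miR-145-3p (-0.98), named after their values were seen to complete the count. The miR-145 arms, like the miR-143 arms, are also in the mesenchymal list. The more abundant row of miR-194, miR-194-1-5p, did not pass (log2 fold change -0.19, edgeR adjusted p = 0.271), nor did miR-107-3p, miR-16-5p and miR-215-5p (edgeR adjusted p = 0.141, 0.507 and 0.859). These 4 were named after their values were seen. The miR-194-1-5p and miR-194-2-5p rows counted as separate arms of this list. How reads that fit both rows were divided is not given in the sources used here, so their different calls are uncertain.

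The miRNAs whose pattern was most like that of miR-34c-5p were found among 226 features outside the family with a mean of at least 50 CPM. Likeness was the root-mean-square difference between log2 CPM profiles over the 11 libraries, each centred on its mean; its median over the 226 was 0.74. miR-93-5p, of the miR-106b cluster in Mcm7, was closest (0.15), with a log2 fold change of -1.30 (SE 0.13; adjusted p = 4.71e-06 by edgeR). It averaged 362.8 ± 23.1 CPM in the P10 libraries (SD, n = 5) against 147.8 ± 21.6 CPM in the adult ones (SD, n = 6). miR-130a-3p (0.19; log2 fold change -1.07) and an antisense feature at miR-3570, miR-3570-5p_antisense (0.22; log2 fold change -1.46), came next. These values describe likeness in libraries that share age and scaling. The features were chosen by their profile over both ages, so a fall like that of miR-34c-5p follows from the choice.

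**Figure D5:**
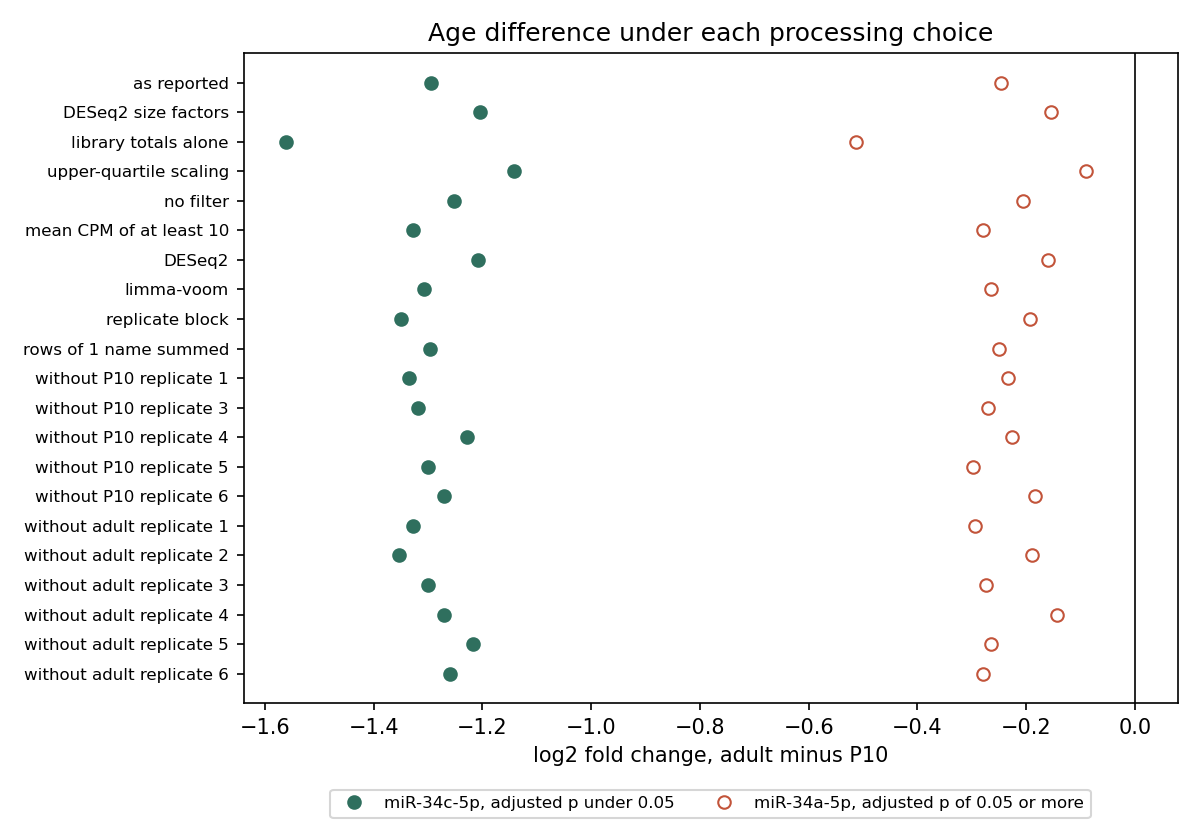
Log2 fold change, adult minus P10, of miR-34c-5p (green) and miR-34a-5p (red) under the reported setting and 20 alternatives, filled where the adjusted p was under 0.05. The miR-34c-5p points lie between -1.56 and -1.14, all filled, and the miR-34a-5p points between -0.51 and -0.09, all open.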

How the data were processed

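The authors deposited unnormalized counts of reads for each mature arm at each locus; per the file headers, positions are in Rnor_5.0. The submitters' processing notes list rn5, edgeR and DESeq without saying what each was used for. For the aligner and the counting rules nothing is given in the sources used here. The table of all libraries and the 11 per-library tables held the same counts. Each name entered once, with its highest count over rows, which left 898 features.

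edgeR 4.0.16 in R 4.3.3 filtered features (filterByExpr, minimum count 10), computed TMM factors on the 457 that passed, and tested age over all libraries by its quasi-likelihood test with robust estimation. Benjamini-Hochberg adjustment ran over all tested features (threshold 0.05). The SE came from the quasi-likelihood statistic. CPM are counts per 1000000 counts of the tested features, TMM-scaled; log2 ratios used a prior count of 2. Arms below the filter were read from a fit without it. Alternatives included limma 3.58.1 (voom) and DESeq2 1.42.0. The edgeR step was tested on simulated data.

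The members, lists and tests were chosen with earlier results of these data known. Named were all member arms, from each list the 2 most abundant arms and the 2 most significant ones, and the 3 features most like miR-34c-5p; others are marked. Libraries of an age all differed by more than sampling noise (chi-square over degrees of freedom at least 11.7). The edgeR p-values set the age difference against the spread between these libraries, moderated over features. The permutation p is the share of arrangements of the age labels with a difference at least as large.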

Additional observations from a re-analysis of the deposited data

How the results depend on the processing

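miR-34c-5p stayed lower in adults and past the threshold under all 20 alternatives (log2 fold change -1.56 to -1.14), and miR-34a-5p passed under 0 of them. The ratio between them, with a prior count of 0.5 and without each library, stayed between -1.14 and -0.94 (highest exact permutation p = 0.00952). The count of features higher in adults, 97, was 54 with library totals alone, 127 with upper-quartile scaling and with DESeq2, and 86 to 97 when each library was left out; the count of lower features, 135, was 103 to 187 over all alternatives. Of the arms below the filter, chosen for this after seeing the data, miR-34b-3p kept its call in all 16 alternatives (-2.50 to -1.96), whereas miR-449a-5p turned positive in 7 of 16: 0.067 with upper-quartile scaling, 0.064 with the replicate block, and up to 0.15 among the fits without a library (lowest -0.37). With the replicate number as a block, miR-34c-5p was at -1.35 (edgeR adjusted p = 0.000442), miR-34a-5p at -0.19 and miR-34b-3p at -1.99, with 93 features higher and 112 lower. In a check of pairing by number, correlations of same-numbered libraries ran from -0.21 to 0.20. Of 5 P10 libraries, 0 correlated best with their own number. With 5 pairs this check cannot exclude a weak link between same-numbered libraries. Alternatives for arm usage were not run, since no precursor of the family entered that test. Depth limits the 6 arms below the filter, which held 0 to 6 counts in each adult library.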

Other observations

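At the loci of the family the table also held an antisense row, for miR-34b-3p, with 1 count over all 11 libraries.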
